A study of Homo sapiens with 10 samples.

Results

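Acetylation of histone H3 at lysine 27 (H3K27ac) was compared between immortalized human astrocytes after 7 days of doxycycline and the same line without doxycycline. Both island lists were set against each other on chromosomes 1 to 22. They held 83153 islands in the 7-day library and 50960 in the library without doxycycline, of 778774 islands in the 9 deposited lists. An island is a run of 200 bp windows called enriched for antibody reads over a control library. The astrocytes are of fetal origin, were immortalised with SV40, and express IDH1-R132H upon doxycycline at 1 µg/ml. The labels give the 7-day cells the genotype IDH1-R132H and the cells without doxycycline the genotype WT IDH1. Reads came from CUT&RUN, in which an antibody directs a nuclease to its target in permeabilised cells, with 200000 cells per reaction. The control library was made with the HRP-linked secondary antibody on cells without doxycycline, and it served both lists. Each condition was measured in 1 library, so no value below has a replicate error and no test between conditions was possible. No cells given doxycycline without IDH1-R132H were among the samples, so doxycycline and time in culture cannot be told apart from IDH1-R132H.

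H3K27ac is laid down by the acetyltransferases p300 and CBP and is found at active promoters and enhancers, where strong sites can join into wide domains. IDH1-R132H, a mutant isocitrate dehydrogenase found in gliomas, makes 2-hydroxyglutarate, which inhibits enzymes that depend on alpha-ketoglutarate, among them TET and JmjC demethylases. The series asks how IDH1-R132H alters histone acetylation. Regions are given by their hg19 position and Giemsa band. Giemsa bands are the stripes of stained chromosomes: light bands are richer in genes, and the darkest are gene-poor. No hg19 annotation was used here, so regions carry no gene names and astrocyte markers were not checked.

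The 7-day library was much the smaller, with a size of 1.49 relative to the HRP control against 3.98 without doxycycline, a ratio of 0.375. Islands held 4677935 reads in the 7-day library and 12715596 without doxycycline. Per unit of library size, the 7-day sum was 0.982 times that without doxycycline. The labels mention no spike-in, and an overall change in the amount of H3K27ac cannot be told apart from library size. Median island length was 2000 bp at 7 days and 4400 bp without doxycycline. The smallest island held 11 reads at 7 days and 23 without doxycycline. Counts without doxycycline were therefore also thinned, by drawing each read with probability 0.375, so that both libraries stood at the depth of the 7-day one.

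Overlapping or touching islands of both lists were merged into 78591 regions, of which 39311 held an island in both libraries. These contained 88.3% of the 7-day reads and 94.5% of the reads without doxycycline. Ratios were read from 22718 of them with at least 100 reads over the 7-day and the thinned library together. Reads were summed per region and divided by library size. These sums were slightly lower at 7 days in most regions: 38.6% had more depth-scaled reads at 7 days. The median log2 ratio was -0.13 (95% interval over regions, -0.14 to -0.12). Each sum counts only reads within that library's own islands, which were mostly shorter at 7 days. The sign of the median differed over like length and per kb of island, as given below. The quartiles were -0.45 and 0.16. A difference of at least 2-fold was seen in few regions. Of the 22718, 178 (0.784%) were at least 2-fold higher at 7 days and 1274 (5.61%) at least 2-fold lower.

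**Figure D1:**
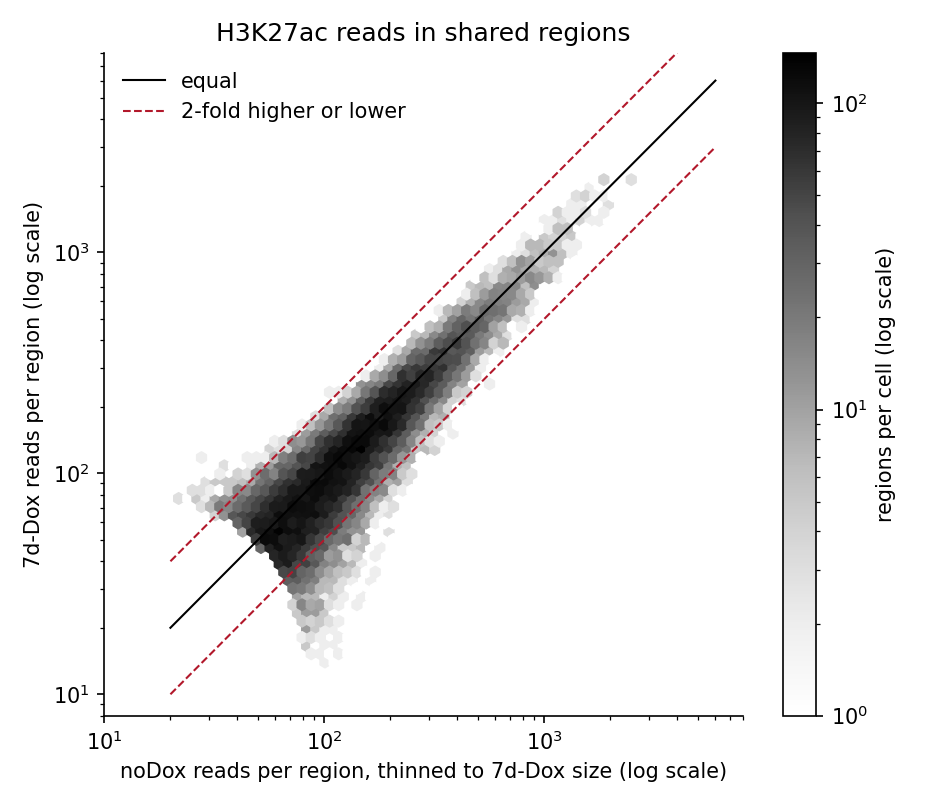
Reads per shared H3K27ac region in the 7-day library (vertical, log scale) and in the library without doxycycline thinned to the same depth (horizontal, log scale), for 22718 regions. Shade gives the number of regions; the cloud follows the line of equal reads and narrows as reads grow, and the empty lower left corner is the minimum of 100 reads.

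The size of the differences depended on how many reads a region held. Among 2274 regions with 100 to 115 reads over both libraries, 62 (2.73%) were at least 2-fold higher at 7 days and 278 (12.2%) at least 2-fold lower. Of 2270 regions with 642 to 10213 reads, none was 2-fold higher and 5 (0.22%) were 2-fold lower. The median log2 ratio was -0.22 in the first class and -0.056 in the second. Strong regions thus held nearly the same depth-scaled reads at 7 days as without doxycycline, and the wide spread lay among weak ones.

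The lower sums went with shorter called stretches. Per region, the median called length at 7 days was 0.691 times that without doxycycline. The 7-day library listed more islands within the region in 37.6% of regions, against 1.53% with more islands without doxycycline. Per kb of called island the median log2 ratio had the opposite sign, 0.41. Regions narrower than 5 kb had a median of 0.020, those of 5 to 10 kb -0.13, those of 10 to 20 kb -0.20 and those of 20 kb or more -0.17. In the last class, 92.6% of 1545 regions held more islands at 7 days. Library size moves with called length, and its part in these values was not tested.

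To compare the same sequence in both libraries, regions were taken whose islands covered at least 70% of the merged region in each. These 9215 regions, called over like length, had a median log2 ratio of 0.050 (0.041 to 0.058), and 55.8% were higher at 7 days. At least 2-fold higher at 7 days were 69 (0.749%), and at least 2-fold lower were 36 (0.391%). A region with fewer reads at 7 days is called over a shorter stretch and can fail the length requirement, so the ratio itself bears on which regions are in this set. The median depended on the length required: it was -0.041 over 17657 regions covered by at least 50%, and 0.10 over 1355 covered by at least 90%.

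**Figure D2:**
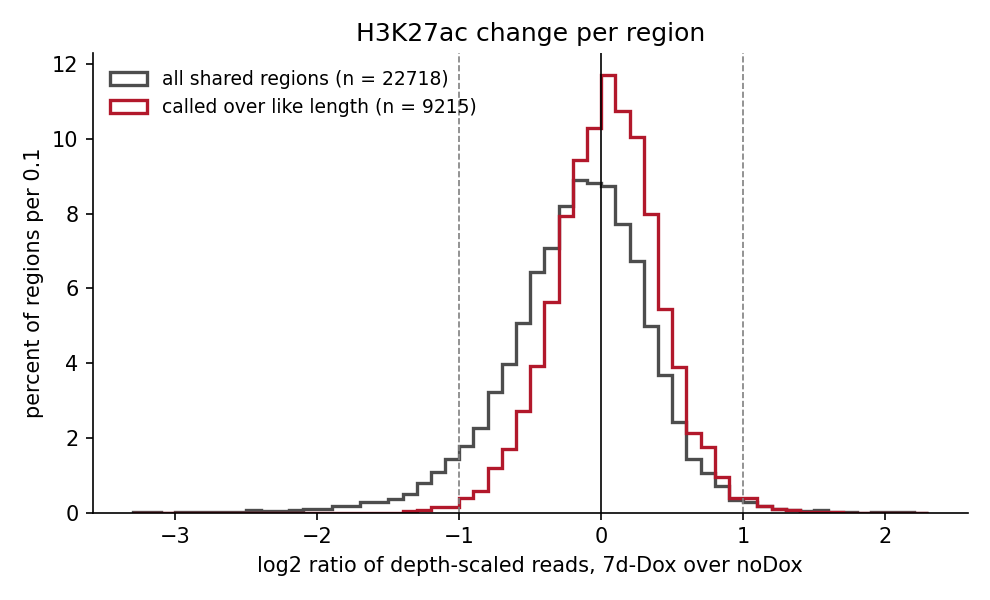
Distribution of the log2 ratio of depth-scaled H3K27ac reads, 7-day over no doxycycline, in percent of regions per 0.1. The grey line is all 22718 shared regions (median -0.13) and the red line the 9215 called over like length (median 0.050); the dashed lines mark 2-fold, and the left tail is longer in the grey line.

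The region with the largest excess at 7 days among those called over like length lay in 21q22.3 (chromosome 21, 43915401 to 43917400). It held 79 reads over 2000 bp at 7 days, against 67 reads over 1600 bp without doxycycline, or 22 after thinning. The log2 ratio was 1.65 (counting interval 1.17 to 2.15), and per kb of island it was 1.33. The HRP control held 3 reads there in the 7-day island and 1 in the island without doxycycline. Islands of other libraries can reach past a region, so they are given as depth-scaled reads per kb of each library's own overlapping islands, with their length. For H3K27ac at 2 days this was 14.6 over 1400 bp, against 15.7 without doxycycline. The depth-scaled sums were 20.4 and 25.1. H3K9ac, another mark of active promoters, had 10.2 per kb over 3000 bp at 7 days and 14.7 over 1200 bp without doxycycline.

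A region in 22q13.33 (chromosome 22, 50707001 to 50711800) held 93 reads over 4800 bp at 7 days and 83 over 4000 bp without doxycycline, 30 after thinning. Its ratio was 1.58 (1.14 to 2.03). H3K9ac had an island there at 7 days, with 45 reads over 2400 bp, and none without doxycycline. In 5q32 (chromosome 5, 148799801 to 148805800) H3K27ac had 98 reads at 7 days and 90 without doxycycline, 32 after thinning, a ratio of 1.54 (1.11 to 1.97). H3K9ac had 7.05 depth-scaled reads per kb over 4200 bp at 7 days and 7.10 over 14400 bp without doxycycline. The latter stretch reached past the region, which is 6000 bp wide, so both values cover unlike sequence. Their depth-scaled sums were 29.6 and 102. The next were 16p13.3 (chromosome 16, 737401 to 740800), with 82 reads at 7 days and 28 after thinning without doxycycline, and 12q13.13 (chromosome 12, 53364201 to 53367200), with 71 and 33. Their ratios were 1.43 (0.97 to 1.90) and 1.40 (0.90 to 1.89).

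All 10 of the largest excesses lay between 1.31 and 1.65, and each was also higher per kb, by 0.88 to 1.63. They were small sites, 2000 to 6000 bp wide, with 71 to 98 reads at 7 days and 22 to 41 after thinning without doxycycline. All 10 had an H3K27ac island at 2 days. H3K9ac islands were present at 9 of the 10 sites at 7 days and at 6 without doxycycline. H4K16ac islands were present at 3 and 4.

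At 8q22.1 (chromosome 8, 94912801 to 94920200) lay the largest deficit at 7 days among regions called over like length. The 7-day library held 59 reads over 6200 bp, against 409 reads over 7000 bp without doxycycline, or 152 after thinning. The log2 ratio was -1.38 (-1.80 to -0.98), and -1.20 per kb. Per kb of island, H3K27ac at 2 days was 21.6 over 4600 bp, against 21.9 without doxycycline. The depth-scaled sums were 99.5 at 2 days and 153 without doxycycline, a log2 ratio of -0.62. H3K9ac had 11.5 depth-scaled reads per kb over 2200 bp at 7 days and 9.91 over 3800 bp without doxycycline. The HRP control was dense there, with 4.14 reads per kb of the island without doxycycline, against 2.20 over all shared regions.

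A region in 5q11.2 (chromosome 5, 54284001 to 54288200) held 27 reads at 7 days and 187 without doxycycline, 73 after thinning, a ratio of -1.38 (-2.02 to -0.79). Per kb of island the 2-day library had 15.0 depth-scaled reads over 6600 bp, against 16.7 without doxycycline. The 2-day stretch reached past the region, and the depth-scaled sums were 99.0 at 2 days and 70.1 without doxycycline. Another in 5q11.2 (chromosome 5, 55006601 to 55010000) held 34 reads at 7 days and 219 without doxycycline, 87 after thinning. Its 2-day value was 23.9 per kb over 2200 bp, against 29.3 without doxycycline, and the depth-scaled sums were 52.6 and 82.1. In 4q22.1 (chromosome 4, 88816601 to 88819400) there were 29 reads at 7 days and 195 without doxycycline, 72 after thinning, a ratio of -1.33 (-1.95 to -0.77). The widest of the 10 was in 4p15.2 (chromosome 4, 27004001 to 27013400), where 58 reads in 2 islands at 7 days stood against 379 in 1 island without doxycycline. Its ratio was -1.29 (-1.72 to -0.89). The 10 largest deficits ranged from -1.38 to -1.21, and per kb from -1.21 to -0.73. All 10 had an H3K27ac island at 2 days.

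**Figure D3:**
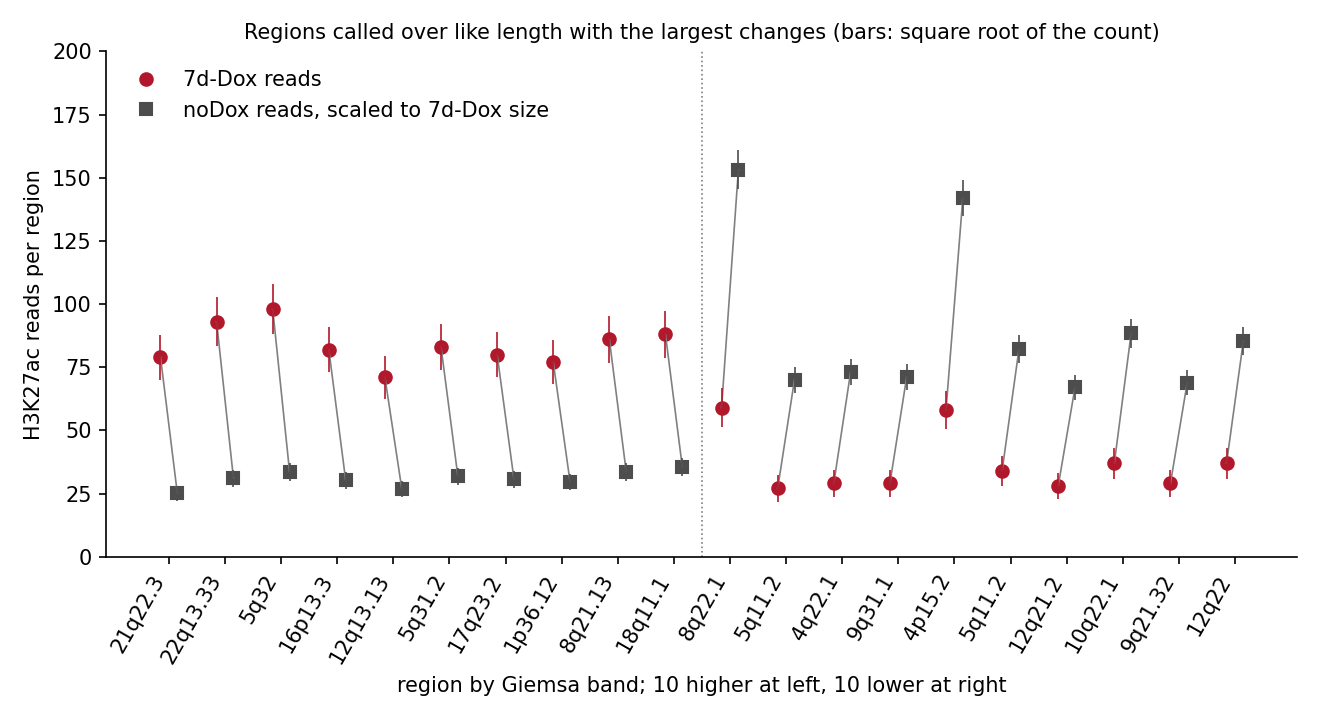
H3K27ac reads in the 10 regions called over like length with the largest excess at 7 days (left of the dotted line) and the 10 with the largest deficit (right). Red circles are 7-day reads and grey squares are reads without doxycycline scaled to the 7-day library size; bars are the square root of the count. Excess sites hold 71 to 98 reads at 7 days, deficit sites 27 to 59.

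The 2-fold regions were counted by place. Chromosomes 16, 17, 19 and 22 held 23 of the 69 regions at least 2-fold higher at 7 days (33.3%) and 1 of the 36 at least 2-fold lower (2.78%), against 15.96% of all 9215 regions called over like length. In bands of the 2 darkest Giemsa classes lay 5 of the 69 (7.25%) and 12 of the 36 (33.3%), against 14.9% of all. An H3K9ac island without doxycycline was present in 73.9% of the 69 and 91.7% of the 36, against 94.8% of all. At 7 days these shares were 88.4%, 86.1% and 95.2%. Median H3K27ac reads without doxycycline were 112 in the 69, 245.5 in the 36 and 350 in all, so the H3K9ac shares compare regions of unlike strength. Between 7 days and no doxycycline, they also compare H3K9ac libraries of unlike size. Chromosomes 16, 17, 19 and 22 were singled out because their median ratio at 7 days was above 0, described next, so their share restates that choice. No test was made of these shares.

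By chromosome, the ratio at 7 days followed gene density. Chromosome 19, the most gene-dense, stood apart at the upper end: its 802 regions had a median log2 ratio of 0.21 (0.18 to 0.24), and 72.2% were higher at 7 days. Chromosomes 16, 22 and 17 followed with medians of 0.064 (0.0065 to 0.10), 0.052 (0.019 to 0.086) and 0.016 (-0.0044 to 0.039). The other 18 chromosomes had medians below 0. Lowest were chromosome 4 at -0.28 (-0.32 to -0.24, 1041 regions) and chromosome 13 at -0.28 (-0.34 to -0.17, 351 regions), then chromosome 18 at -0.22. Chromosome 19 gave 3.71% of island reads at 7 days and 2.95% without doxycycline, and chromosome 4 gave 4.13% and 4.56%.

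RefSeq lists 24.5 protein-coding genes per Mb for chromosome 19, 4.03 for chromosome 4 and 2.93 for chromosome 13. Over the 22 chromosomes Spearman's rho between gene density and the median ratio was 0.82, and 0.79 without chromosome 19. This is a description over chromosomes that share both libraries. The median G+C share of RefSeq promoter windows also moved with the ratio (rho 0.51 over 21 chromosomes), being 63.3% on chromosome 19, 66.3% on chromosome 16 and 61.0% on chromosome 4. Its part in the chromosome values was not tested.

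The distance between chromosomes 19 and 4 was also seen at like length and within width classes. Among regions called over like length, chromosome 19 had a median of 0.29 (0.26 to 0.32, 417 regions) and chromosome 4 one of -0.069 (-0.12 to -0.033, 359 regions). In regions of 5 to 10 kb the medians were 0.18 on chromosome 19 and -0.28 on chromosome 4, and in those of 10 to 20 kb 0.20 and -0.36. On chromosomes 16 and 17 the medians were below 0 in regions of 10 to 20 kb, at -0.048 and -0.046. Per kb of island all 22 chromosomes were above 0, with chromosome 19 at 0.51 and chromosome 4 at 0.32. The HRP control held 1.85 reads per kb of island on chromosome 19 and 2.12 on chromosome 4.

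Side by side, the 2-day H3K27ac library did not share this order. At 2 days all 22 medians over the library without doxycycline were below 0, and chromosome 19 was the lowest at -0.21 (-0.23 to -0.18). Chromosome 4 was nearest to 0, at -0.061 (-0.078 to -0.047). Chromosomes 16, 17 and 22 were at -0.18, -0.14 and -0.18. Both comparisons use the same library without doxycycline. For H3K9ac, whose libraries are others, the 7-day medians were 0.035 on chromosome 19, 0.031 on chromosome 16 and -0.052 on chromosome 4. Chromosome 13 was at -0.025, near the -0.026 over all H3K9ac regions, and chromosomes 9 and 18 were lowest at -0.073 and -0.070. Over the 22 chromosomes Spearman's rho between the 7-day medians of H3K9ac and H3K27ac was 0.58. H4K16ac had higher values on chromosomes 13 and 4 (0.76 and 0.62) than on chromosomes 19 and 22 (0.31 and 0.23). Its median over all regions was 0.49, and Spearman's rho with the H3K27ac medians was -0.81. The 7-day H4K16ac library was 3.11 times the size of the one without doxycycline. Its median island length was 4800 bp, against 2000 bp without doxycycline. The part of library size and called length in the H4K16ac values was not tested.

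**Figure D4:**
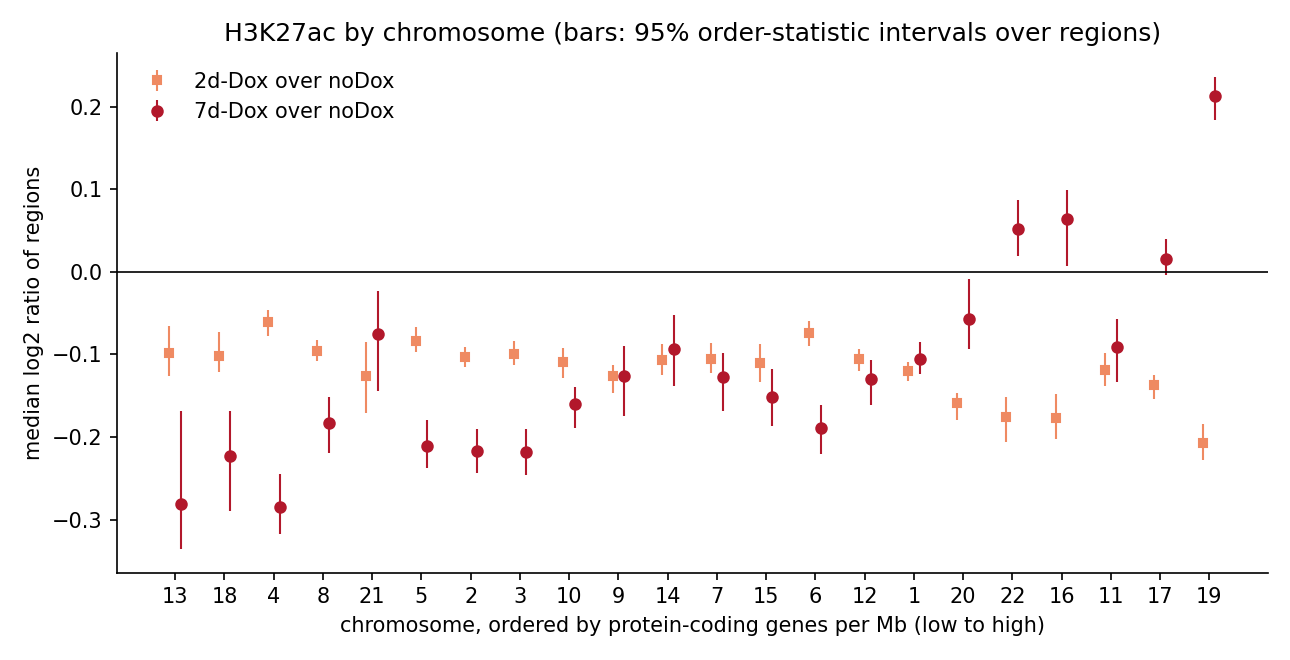
Median log2 ratio of depth-scaled H3K27ac reads over shared regions for each of 22 chromosomes, at 2 days (orange squares) and 7 days (red circles) over the library without doxycycline. Chromosomes run from few to many protein-coding genes per Mb; bars are 95% intervals over regions. Chromosome 19 is highest at 7 days (0.21) and lowest at 2 days (-0.21).

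Giemsa bands were compared at finer scale. Regions in the darkest bands had a median log2 ratio of -0.33 at 7 days (1675 regions). The next classes, from dark to light, had -0.29 (2217 regions), -0.18 (3003) and -0.058 (2621). Light bands had -0.082 (13123 regions). Without chromosomes 16, 17, 19 and 22 these medians were -0.33, -0.30, -0.21, -0.11 and -0.11. For regions called over like length they were -0.11, -0.084, 0.017, 0.12 and 0.075.

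Among 311 bands with at least 30 shared regions, 74 had a median above 0 at 7 days, and 28 of these lay on chromosomes 16, 17, 19 and 22, which held 41 of the 311 and were singled out for their medians above 0. All 10 such bands of chromosome 19 were above 0. The highest was 19q13.43 at 0.48, with 30 of its 36 regions higher at 7 days, followed by the end bands 7p22.3 (0.35, 32 of 43), 11p15.5 (0.35, 29 of 35) and 1p36.33 (0.31, 31 of 38). Each of these 4 was below 0 at 2 days, at -0.18, -0.25, -0.37 and -0.32. The lowest bands were 4q32.1 at -0.54 (5 of 40 regions higher at 7 days), 7p21.1 at -0.54 (9 of 44), 7q21.11 at -0.53 (7 of 42) and 5q12.3 at -0.53 (7 of 36). Their 2-day medians were -0.076, -0.048, -0.012 and -0.064. In 7p21.1 the 13 regions called over like length had a median of 0.026.

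The other marks were used to class the regions. Most shared regions, 16393, also held H3K9ac and H4K16ac islands without doxycycline, and their median log2 ratio was -0.13. The 5081 regions with H3K9ac and without H4K16ac had a median of -0.14. The 459 with H4K16ac alone had -0.13, and the 785 with neither mark -0.054 (-0.11 to -0.0011). Classed by the marks present at 7 days, medians were further apart. Regions with H3K9ac and without H4K16ac had -0.063 (-0.081 to -0.047, 4682 regions), and those with H4K16ac and without H3K9ac -0.31 (-0.38 to -0.19, 362 regions). Regions with both marks had -0.14 and those with neither -0.19. Split into 4 equal classes by HRP reads per kb, regions had medians of -0.080, -0.15, -0.17 and -0.11 from low to high.

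Of the 83153 islands at 7 days, 64.5% (64.2 to 64.8) overlapped an island without doxycycline by at least 1 bp. Of the 50960 islands without doxycycline, 79.6% (79.3 to 80.0) overlapped one at 7 days. Both shares followed the reads in the island. No 7-day island with 100 reads or more lacked a partner, of 12048. Among 7-day islands of 11 to 19 reads the share with a partner was 30.1% (29.6 to 30.6). Of islands without doxycycline that still had 100 to 199 reads after thinning, 99.8% (99.7 to 99.9) had a 7-day partner. The share was 95.6% (95.2 to 96.0) at 50 to 99 reads, and 63.0% (62.4 to 63.7) at under 50.

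**Figure D5:**
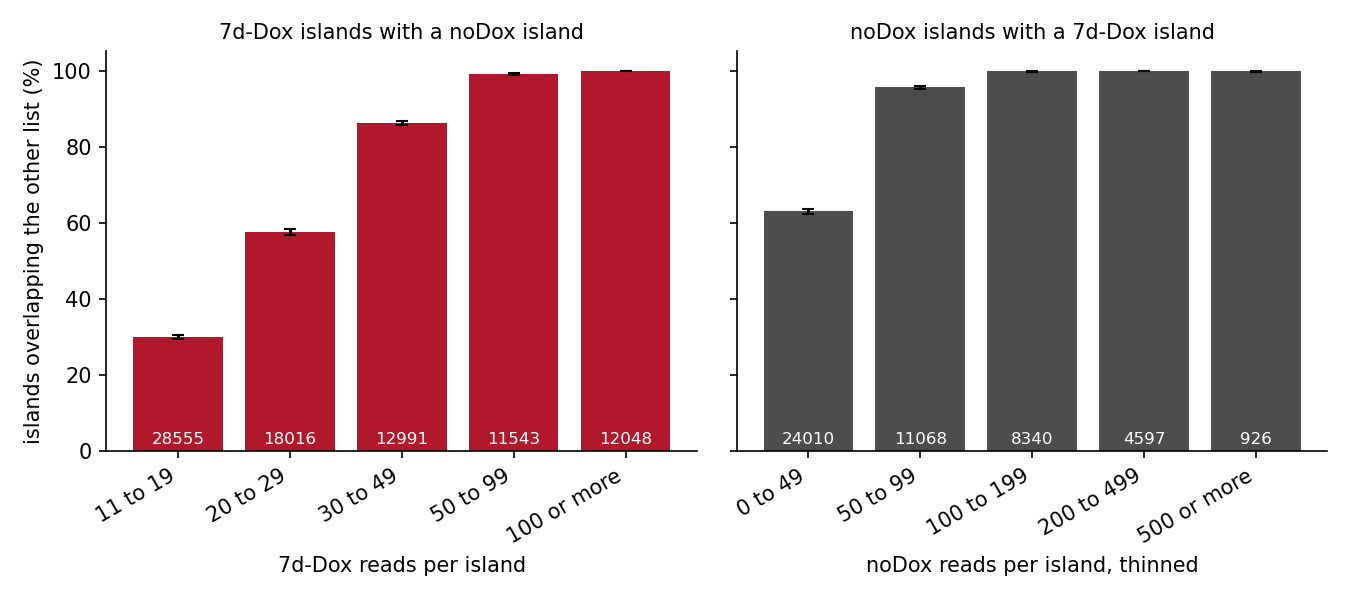
Share of H3K27ac islands that overlap an island of the other library by at least 1 bp, in percent, by reads per island. Left, 7-day islands; right, islands without doxycycline that still pass the 7-day cutoff after thinning. White figures give the number of islands and bars are exact 95% binomial intervals. Nearly every island with 50 reads or more has a partner.

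Missing partners were then set against depth. After thinning, 48941 of the 50960 islands without doxycycline (96.0%) still passed the p cutoff and the smallest count of the 7-day list, and 80.9% (80.5 to 81.2) of these had a 7-day partner. Islands are built from single windows before they are tested, and that step cannot be redone from the lists.

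The 7-day islands without a partner were short and weak, with a median of 17 reads over 1200 bp, against 42 reads over 2600 bp for those with one. They were seldom listed for H3K27ac at 2 days, where 10.5% (10.1 to 10.8) of them overlapped an island, against 89.99% of the 7-day islands with a partner. Within the class of 11 to 19 reads these shares were 7.42% (7.06 to 7.79) and 69.9% (68.9 to 70.9). H3K9ac at 7 days was present at 26.3% of the unpartnered islands of that class and 58.9% of the others. H4K16ac at 7 days was present at 42.9% and 58.2%. Reads per kb were alike in this class, 14.6 in unpartnered and 13.7 in partnered islands, as was the share with no HRP read, 46.4% and 43.6%. Islands without doxycycline that lacked a 7-day partner were more often seen at 2 days, in 66.2% (65.3 to 67.1) of 10390, against 93.6% of those with one.

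The strongest region with an island at 7 days only was in 17p13.2 (chromosome 17, 4435601 to 4445000), with 94 reads over 9400 bp and 29 HRP reads. Scaled to the size of the library without doxycycline, these 94 reads are 251, and they were 2.17 times the scaled control. Depth-scaled H3K9ac reads per kb of island were 7.53 at 7 days and 6.03 without doxycycline at that site, and those of H4K16ac were 7.69 and 9.58. In 11q13.4 (chromosome 11, 72296401 to 72302400) there were 88 reads at 7 days over 6000 bp with 6 HRP reads, 9.83 times the scaled control. H3K9ac had an island of 400 bp there at 7 days, with 24 reads, and none without doxycycline. A region in 12q24.13 (chromosome 12, 112497001 to 112505200) had 81 reads over 8200 bp, 3.39 times the scaled control. It overlapped 47200 bp of H4K16ac island at 7 days and 2600 bp without doxycycline, with 7.48 and 9.06 depth-scaled H4K16ac reads per kb. H4K16ac islands were longer in general in the 7-day library, which was 3.11 times the size of the one without doxycycline. Over chromosomes 1 to 22 they covered 584 Mb at 7 days and 275 Mb without doxycycline. The region in 16p13.3 (chromosome 16, 2284001 to 2288000) had 70 reads with 4 HRP reads, 11.7 times the scaled control, and it was 1 of 2 among the 10 strongest that had an H3K27ac island at 2 days. The HRP control was dense at 5 of the 10, with 5.22 to 6.47 reads per kb in 17p11.2, 11p15.2, 8p12, 6p12.1 and 5q13.3. It held 3.03 reads per kb over unpartnered 7-day islands of 50 reads or more, and 1.84 over all unpartnered 7-day islands. At these 5 the 7-day reads were 1.72 to 2.29 times the scaled control.

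Without doxycycline only, the strongest region was in 15q21.3 (chromosome 15, 57267001 to 57282000). It had 434 reads over 15000 bp, 186 after thinning, in 1 island without doxycycline, and no island at 7 days. The HRP control held 3 reads per kb there, against 1.96 over all islands without doxycycline that lacked a 7-day partner. The 434 reads were 2.42 times the scaled control. At 2 days H3K27ac had 11.3 depth-scaled reads per kb over 15400 bp there, against 10.8 without doxycycline. H3K9ac was listed there in both libraries, with 6.42 per kb at 7 days and 7.26 without doxycycline. In 2q12.3 (chromosome 2, 107568801 to 107583000) there were 400 reads without doxycycline, 128 after thinning, and in 3p24.1 (chromosome 3, 30533001 to 30545800) 365 and 130. At both sites H3K9ac, too, had no island at 7 days, with 32 and 112 reads without doxycycline. Their 2-day H3K27ac islands covered 6600 and 6800 bp, with 14.4 and 13.1 depth-scaled reads per kb. Without doxycycline the islands covered 14200 and 12800 bp, with 10.6 and 10.7 per kb. The depth-scaled sums were lower at 2 days, at 95.2 against 150 in 2q12.3 and 89.1 against 137 in 3p24.1. HRP control reads per kb without doxycycline were 3.45 and 4.22 at these sites. The H3K27ac reads without doxycycline were 2.05 and 1.70 times the scaled control. The region in 6q27 (chromosome 6, 169612201 to 169617400) was the most compact, with 272 reads over 5200 bp without doxycycline, 95 after thinning. Depth-scaled reads per kb there were 13.4 over 7600 bp at 2 days and 19.6 without doxycycline, while the depth-scaled sum was 102 in both. All 10 of the strongest had an H3K27ac island at 2 days and an H3K9ac island without doxycycline, and 7 had an H3K9ac island at 7 days. They were 5200 to 15000 bp wide, with 8.08 to 19.6 depth-scaled reads per kb.

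Regions missing at 7 days were also spread unevenly. Of the regions with an island without doxycycline, 10206 of 49517 had none at 7 days over all chromosomes. The share was lowest on chromosome 19, at 10.4%, and highest on chromosome 13, at 26.8%. Regions present at 7 days only, 29074 of 68385 over all chromosomes, varied less. They ranged from 39.1% of 7-day regions on chromosome 19 to 44.9% on chromosome 4.

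The 10 densest regions at 7 days were ranked by 7-day reads per kb of island, which favours short 7-day stretches. The called stretch was shorter at 7 days in all 10, as it was in 86.1% of all shared regions. In 22q13.1 (chromosome 22, 39051201 to 39055000) the 7-day island held 262 reads over 2600 bp, 101 per kb, against 403 reads over 3800 bp without doxycycline, 151 after thinning. The log2 ratio of its sums was 0.80 (0.57 to 1.02). The largest of the dense regions, in 17p13.1 (chromosome 17, 7734201 to 7750800), held 1411 reads over 14600 bp at 7 days and 2609 over 16600 bp without doxycycline, 947 after thinning, a ratio of 0.53 (0.44 to 0.62). A site in 2q37.3 (chromosome 2, 242640201 to 242644400) had 241 reads at 7 days and 147 after thinning without doxycycline, a ratio of 0.68 (0.45 to 0.92). In 13q33.3 (chromosome 13, 107208201 to 107222000) the 7-day list kept 148 reads over 1600 bp, where the list without doxycycline had 556 over 13800 bp. Its sums gave -0.49 (-0.76 to -0.23) and its reads per kb 2.62, the largest gap between both measures among these 10. In 9 of the 10 densest regions the summed ratio was above 0. They were chosen by their 7-day density, so this count is a description.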

How the data were processed

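The authors made 1 island list per antibody library against the HRP control. The submitters' processing notes name SICER, Picard, deepTools, Bowtie2 2.3.5.1, FastQC and cutadapt, with hg19. No source used here gives their settings or the handling of duplicates. The deposited counts of antibody and HRP reads per island are raw whole numbers. The deposited log2 fold is the log2 ratio of both counts less 1 constant per list, which gives relative library size; where HRP had 0 reads, 0.25 stood in. The deposited p-value could be recomputed within 9.10e-13 as a Poisson upper tail with the scaled HRP reads as its mean, and the deposited score, a multiple of the log2 fold, was not used further.

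Positions are 1-based. Chromosome X was left out (1488 islands at 7 days, 1084 without doxycycline) and entered as an alternative. Merging, ratios and thinning (1 seeded draw) used Python 3.11.15, numpy 2.4.6, pandas 2.3.3 and scipy 1.17.1, and were tested on simulated data. Both simulated lists had the same island boundaries, so the simulation did not bear on differences in called length. Count ratios and shares carry exact Clopper-Pearson 95% intervals and medians order-statistic intervals; both take reads or regions as independent and cover counting error only. Summed island reads are not library depth. Bands came from circlize 0.4.16, chromosome lengths from GenomeInfoDb 1.38.1, and gene numbers and promoter windows from RefSeq on GRCh38.p14, used per whole chromosome only. Regions named were the 10 most extreme per class: largest ratios either way among regions called over like length, most reads in 1 library only, and most 7-day reads per kb. Members, classes and rules were chosen with earlier results of these data known.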

Additional observations from a re-analysis of the deposited data

Results flagged for a closer look

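On 4 chromosomes the median H3K27ac log2 ratio over the library without doxycycline had opposite signs at 2 and 7 days. The medians were -0.18 at 2 days and 0.064 at 7 days on chromosome 16, -0.14 and 0.016 on chromosome 17, -0.21 and 0.21 on chromosome 19, and -0.18 and 0.052 on chromosome 22. Each time is 1 library, both ratios use the same library without doxycycline, and the difference was not tested.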

How the results depend on the processing

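The median log2 ratio over shared regions was -0.087 with at least 200 reads, -0.15 with at least 40 or with no minimum, -0.10 when scaled by reads in islands, and -0.16 without chromosomes 16, 17, 19 and 22 (chosen after the data were seen). It reversed to 0.41 per kb of island, as shorter called stretches enter the denominator. Regions at least 2-fold higher numbered 23, 807, 825 and 2561 with at least 200 reads, at least 40, no minimum and per kb, and those 2-fold lower 289, 3413, 3456 and 28. The like-length median was 0.10 at 90% coverage, 0.076 when scaled by reads in islands, and reversed to -0.041 at 50% coverage. The overlap of 7-day islands was 65.4% with the authors' FDR of at most 0.001 and 61.4% when 50% of the island had to overlap. That of islands without doxycycline was 78.8% and 53.6%, and 80.9% after thinning. Chromosome 4 reversed to 0.32 per kb. Thinned counts, joining across 2 kb and chromosome X kept medians within their intervals and counts within 1.5 times. No paired analysis was possible because each side has 1 library. Weak regions limit the comparison: 57.8% of the regions present in both lists passed the read minimum.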
